A study of Mus musculus with 9 samples.

Results

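Phase II conjugation enzymes make foreign and endogenous small molecules more soluble by attaching a polar group, and their expression was examined in 9 mouse colorectal samples. The set was chosen by gene symbol alone: a symbol belonged if it started with Ugt1a, Ugt2, Sult1, Sult2, Gsta, Gstm, Gstp, Gstt, Gsto or Gstk, continued only with letters or digits, and was above 0 in at least 1 sample. Of 21498 gene symbols, 54 fitted this pattern, 43 were above 0 in a sample and are the members, and the other 11 (Ugt2a3, Ugt2b37, Ugt2b38 and 8 Sult2a symbols) were listed at 0 in all 9 samples. The members are 9 Ugt1a, 7 Ugt2, 6 Sult1, 1 Sult2, 4 Gsta, 7 Gstm, 2 Gstp, 4 Gstt, 2 Gsto and 1 Gstk genes.

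UDP-glucuronosyltransferases (UGTs) attach glucuronic acid, cytosolic sulfotransferases (SULTs) attach sulfate from the donor PAPS, and glutathione S-transferases (GSTs) join electrophiles to glutathione. The colonic epithelium carries these enzymes as a barrier to dietary compounds, bacterial metabolites and carcinogens, and the conjugates leave the cell through ABC transporters. The Ugt1a genes are unusual in that each symbol has its own first exon and all of them share the remaining exons.

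The samples came from male ICR mice, an outbred strain, 5 weeks old at the start, with 3 mice in each of 3 groups. Control mice received neither AOM/DSS nor antibody, and their tissue is labelled normal colorectal mucosa. AOM/DSS + IgG Ab mice received 10 mg/kg azoxymethane (AOM), a colon carcinogen, then 3 cycles of dextran sulfate sodium (DSS), which injures the epithelium (2% for 7 days, then 1.5% for 5 days in the later cycles), with 1.5 mg/kg of a negative control IgG antibody. AOM/DSS + anti-S100a9 Ab mice received the same AOM and DSS with 1.5 mg/kg of an antibody against S100a9, a protein of neutrophils and other myeloid cells. Both antibodies were given during the DSS cycles, and mice were killed at the end of week 18. The labels call the tissue of both AOM/DSS groups colorectal adenocarcinoma, and only these groups received an antibody. AOM/DSS treatment, tumor tissue and antibody injection therefore cannot be told apart in a comparison with Control. How much of each piece was tumor is not given in the sources used here.

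Values are FPKM, fragments scaled to transcript length and sequencing depth, and comparisons were made on log2(FPKM + 0.1), a scale that understates changes of low values. A member rose or fell where limma's moderated test, fitted to all 9 samples over 15278 genes, gave a Benjamini-Hochberg adjusted p under 0.05. Low values were filtered out first (at least 0.1 FPKM in at least 3 samples), which left 32 of the 43 members. The 11 members not tested (Ugt1a5, Ugt1a6a, Ugt1a8, Ugt1a10, Ugt2a1, Ugt2a2, Ugt2b1, Ugt2b5, Sult1c1, Gstp2 and Gstt4) reached at most 0.417 FPKM. Files give no counts, so the absolute depth is unknown; the steps between low values put the depths at 0.853 to 1.12 times that of Control replicate 1. Gapdh, Ppia and Rps18 were listed below 1 FPKM in every sample, so a member at 0 is described only as listed at 0. Whether nonzero values of other genes were understated as well was not tested, so levels are compared between genes only as listed.

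Markers of several cell types differed between the groups beside the members. The summed FPKM of 8 epithelial markers was 4425 to 5727 in Control, 3936 to 5497 in AOM/DSS + IgG Ab and 3887 to 4945 in AOM/DSS + anti-S100a9 Ab samples, so epithelial RNA was present in all of them. In contrast, 10 markers of differentiated colonocytes summed to 3076 to 3435, 222 to 1209 and 1381 to 2670 FPKM in that order. Guca2a was the largest part of this sum in every sample, at 1671 to 2334, 94.1 to 725 and 480 to 841 FPKM. Of the 10, 4 fell and 0 rose in AOM/DSS + IgG Ab against Control by limma. Guca2b did not follow the sum, at 9.05 to 14.8, 9.04 to 15.8 and 4.38 to 7.73 FPKM. In AOM/DSS + IgG Ab replicate 1, Car4, Slc26a3 and Aqp8 were at 1.37, 2.79 and 1.08 FPKM. Sums of 6 fibroblast markers were 412 to 497, 616 to 2093 and 559 to 734 FPKM, and 4 of the 6 rose in AOM/DSS + IgG Ab against Control by limma. Of 7 neutrophil markers 6 rose, with sums of 3.97 to 5.399, 133 to 610 and 14.6 to 30.9 FPKM, and the other, Ly6g, was at 88.8 to 117, 26.1 to 96.0 and 82.1 to 150.2 FPKM. Adipocyte markers summed to 74.8 to 264, 9.70 to 45.2 and 19.4 to 36.3 FPKM, and 4 of the 5 tested fell in AOM/DSS + IgG Ab against Control. Smooth muscle markers summed to 1801 to 2857, 518 to 3251 and 2246 to 4074 FPKM, lowest in AOM/DSS + IgG Ab replicate 1, with median log2 fold changes of -1.04 in AOM/DSS + IgG Ab against Control (0 of 6 called) and 1.42 for the antibody comparison (1 of 6 higher). Goblet cell and macrophage markers had no call in either comparison, and 3 of 7 cycling cell markers were lower in the antibody comparison. The part of these cell types in the results was not tested. Hepatocyte markers summed to no more than 56.0 FPKM in any sample. In bulk tissue, fewer cells of a type and less RNA of a gene per cell cannot be told apart. Among the 27 members with a mean of at least 1 FPKM in a group, AOM/DSS + IgG Ab replicate 1 was the lowest of its group for 20. AOM/DSS + anti-S100a9 Ab replicate 1 was likewise the lowest of its group for 20 of the 27, and Control replicate 1 for 13. Call counts and the fold changes of some members are also given without AOM/DSS + IgG Ab replicate 1.

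Most of the measured level belonged to a few members. In Control samples the members summed to 1135 to 1310 FPKM, 0.306% to 0.324% of all FPKM. Gsto1, which reduces dehydroascorbate and arsenic compounds, held 22.9% of that sum with 274 ± 55.2 FPKM (SD, n = 3), Gstm1, the main mu class transferase, held 14.1% with 169 ± 29.5 FPKM, and Gsta4, which clears the lipid peroxidation product 4-hydroxynonenal, held 10.3% with 124 ± 3.83 FPKM. Ugt1a1, the enzyme that conjugates bilirubin, followed at 73.3 ± 4.08 FPKM. Gstp1, Ugt2b34, Sult1b1 and Sult1a1 came next, between 60.4 and 68.4 FPKM on average, with SDs of 6.18 to 23.4 FPKM. Their order among each other was not tested. At the other end, 16 of the 43 members were under 1 FPKM in every sample.

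The summed levels of the families did not move alike, and differences between families were not tested. UGT members summed to 134 to 195 FPKM in Control, 30.9 to 97.3 in AOM/DSS + IgG Ab and 122 to 178 in AOM/DSS + anti-S100a9 Ab samples. The sums for SULT members were 166 to 234, 27.9 to 89.7 and 129 to 168 FPKM. For both families every AOM/DSS + IgG Ab sample lay below every sample of the other groups. GST members summed to 716 to 973, 629 to 760 and 539 to 727 FPKM, with overlap between the groups. Within the AOM/DSS + IgG Ab group, the order of the mice by UGT or SULT sum was also their order by colonocyte marker sum, with replicate 1 lowest and replicate 2 highest. In Control neither order matched, and replicate 3 had the highest colonocyte marker sum (3435 FPKM) but the lowest UGT sum (134 FPKM). Under AOM/DSS + anti-S100a9 Ab the SULT order matched and the UGT order did not. The part of cell composition in these sums was not tested.

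**Figure D1:**
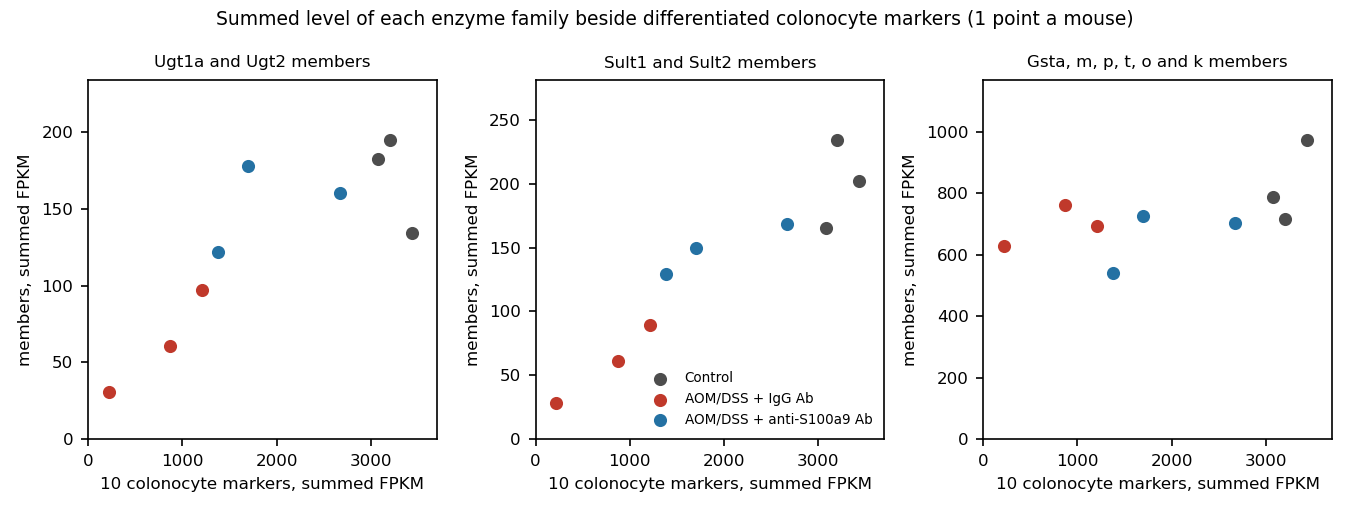
Summed FPKM of the UGT, SULT and GST members (vertical axes, FPKM) against the summed FPKM of 10 differentiated colonocyte markers (horizontal axes) in each mouse, 1 point a mouse, coloured by group. Guca2a is the largest part of the marker sum in every mouse. UGT and SULT sums of the AOM/DSS + IgG Ab mice (30.9 to 97.3 and 27.9 to 89.7) lie below all others, while GST sums overlap (629 to 760 against 716 to 973 in Control).

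The first comparison, AOM/DSS + IgG Ab against Control, shows how the enzymes stood in the diseased tissue. In it 9 members fell and 2 rose. Falls made up 28.1% of the 32 tested members, against a background of 3.01% of all genes tested, and rises 6.25% against 8.18%. The members' median log2 fold change was -0.98, and that of all genes 0.09. By the looser thresholds of the study, an unadjusted p under 0.05 with more than 2-fold change, 13 members were lower (background 5.19%) and 2 higher (background 8.43%), and 18 differed at an unadjusted p under 0.05 of any size (background 29.5%). Every AOM/DSS + IgG Ab mouse lay below every Control mouse in 14 members (43.8%, background 10.2%) and above in 3 (background 20.7%). The fallen members were Ugt1a1, Ugt1a7c, Sult1a1, Sult1b1, Sult1d1, Gstm1, Gstm3, Gstt1 and Gstt3, and those that rose were Gstm5 and Gstm7.

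**Figure D2:**
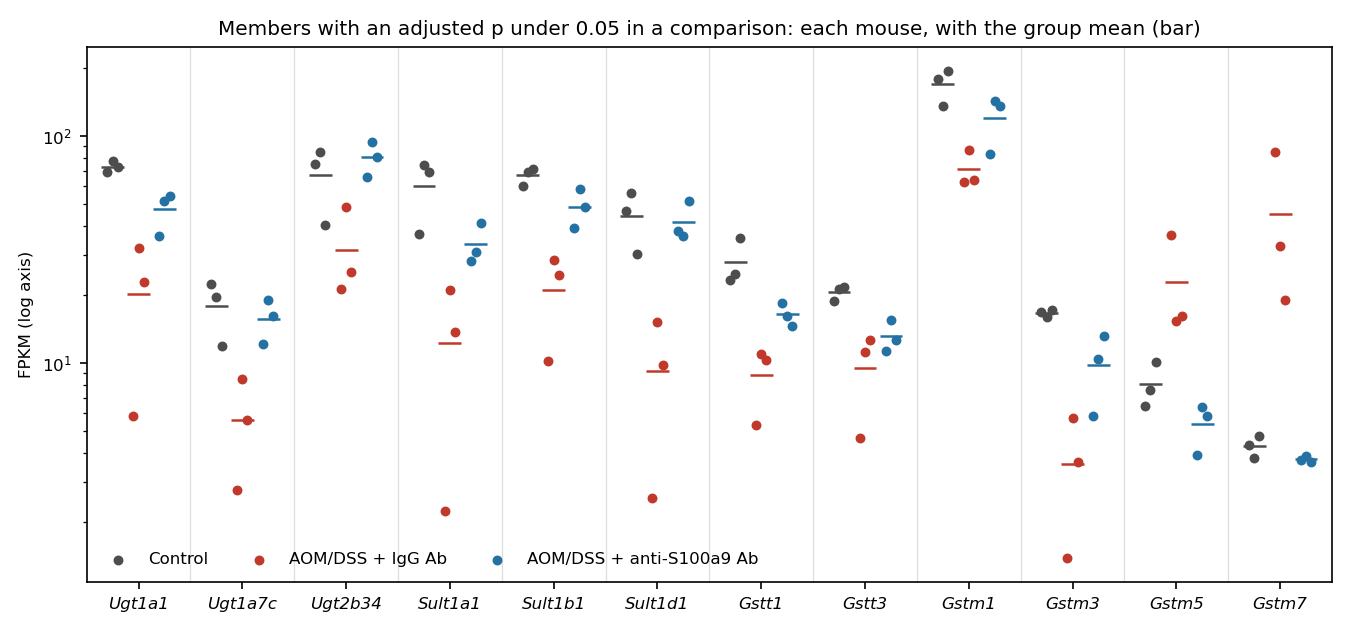
FPKM (log axis) of the 12 members with an adjusted p under 0.05 in at least 1 comparison, with 1 point for each mouse and a bar at the mean of 3 mice, coloured by group. For 9 of these genes the AOM/DSS + IgG Ab points lie below all Control points, Ugt2b34 overlaps, and Gstm5 and Gstm7 lie above, at 15.4 to 36.5 and 18.9 to 84.7 FPKM.

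Among the UGTs, Ugt1a1 measured 69.5, 77.7 and 72.8 FPKM in the Control mice, 5.86, 32.01 and 22.6 in the AOM/DSS + IgG Ab mice and 36.3, 52.0 and 54.3 under AOM/DSS + anti-S100a9 Ab. The groups did not overlap, and Control mice were highest. Its log2 fold change against Control was -2.17 (standard error 0.52, adjusted p = 0.032 from limma), or -1.44 without AOM/DSS + IgG Ab replicate 1. The call was lost when any Control or any AOM/DSS + anti-S100a9 Ab mouse was left out. Ugt1a7c, which conjugates phenols, measured 22.4, 19.5 and 11.9 FPKM in Control and 2.76, 8.48 and 5.61 in AOM/DSS + IgG Ab mice (log2 fold change -1.74, standard error 0.40, adjusted p = 0.027 from limma). All AOM/DSS + IgG Ab values were below all Control values for it too. Ugt2b34, the most abundant Ugt2 gene, gave 75.6, 85.2 and 40.8 against 21.2, 48.5 and 25.1 FPKM. One Control mouse lay below the highest AOM/DSS + IgG Ab mouse, and the adjusted p was 0.079. In all, 2 of 8 tested UGT members fell and none rose, with a family median log2 fold change of -1.22.

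Reads from the shared Ugt1a exons cannot be assigned to a single symbol. In the GENCODE transcripts, 41.8% of the stretches of 50 bases in Ugt1a1 and 46.3% of those in Ugt1a7c occur in no other gene. Ugt1a5, Ugt1a6a, Ugt1a8 and Ugt1a10 stayed at or below 0.417 FPKM, and Ugt1a10 never exceeded 4.59e-08 FPKM. The division of the Ugt1a signal among symbols is therefore uncertain. The summed Ugt1a level depends less on that division and was 89.2 to 102 FPKM in Control, 8.73 to 43.9 in AOM/DSS + IgG Ab and 51.3 to 76.9 in AOM/DSS + anti-S100a9 Ab mice.

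Of the SULTs, 3 of 6 tested members fell, and the family median log2 fold change was -1.92. Sult1a1, the main phenol sulfotransferase, measured 36.9, 74.9 and 69.5 FPKM in Control and 2.23, 20.98 and 13.6 in AOM/DSS + IgG Ab mice. Even the lowest Control value exceeded the highest AOM/DSS + IgG Ab value. The log2 fold change was -2.72 (standard error 0.70, adjusted p = 0.041 from limma), and it was -1.76 without AOM/DSS + IgG Ab replicate 1 and -3.35 without replicate 2. Only those 2 of the 9 leave-one-out fits kept the call. Sult1d1, a catecholamine sulfotransferase of rodents, went from 46.9, 56.3 and 30.3 to 2.53, 15.2 and 9.83 FPKM (log2 fold change -2.55, standard error 0.56, adjusted p = 0.024 from limma, and -1.81 without that replicate). Its AOM/DSS + IgG Ab mice all lay under 16 FPKM and its Control mice all above 30. Sult1b1, which acts on phenols and thyroid hormones, measured 60.1, 69.7 and 71.6 against 10.2, 28.5 and 24.4 FPKM (log2 fold change -1.79, standard error 0.35, adjusted p = 0.015 from limma). Here the 2 groups were separated by more than 30 FPKM.

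Sult2b1, a cholesterol and hydroxysteroid sulfotransferase, was 15.8 to 19.8 FPKM in Control and 8.90 to 11.6 in AOM/DSS + IgG Ab mice without overlap, with an adjusted p of 0.067 from limma. Sult1c2 overlapped between the groups (log2 fold change -0.97, 95% interval -2.44 to 0.49). Sult1e1, the estrogen sulfotransferase, was near 1 FPKM, with 0.264, 1.49 and 1.52 in Control and 0.0317, 0.913 and 0 in AOM/DSS + IgG Ab mice (adjusted p = 0.16 from limma). Sult1b1, Sult1d1 and Sult1e1 are neighbours on chromosome 5 of GRCm38, between 87513339 and 87591594.

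GST members split by class. In the theta class, Gstt1, which acts on small halogenated compounds, measured 23.2, 24.6 and 35.6 FPKM in Control and 5.32, 10.97 and 10.3 in AOM/DSS + IgG Ab mice. Its log2 fold change was -1.68 (standard error 0.28, adjusted p = 0.0088 from limma), a call kept in all 9 leave-one-out fits and in the 9 other alternatives. Gstt3 measured 18.8, 21.3 and 21.6 against 4.67, 11.2 and 12.6 FPKM (log2 fold change -1.23, adjusted p = 0.047 from limma), and this call was lost when any Control or any AOM/DSS + anti-S100a9 Ab mouse was left out. The most abundant theta gene, Gstt2, overlapped at 27.5 to 48.0 against 13.9 to 30.1 FPKM. Gsto1, Gstp1 and Gstk1 overlapped as well, with log2 fold changes of -0.27, -0.23 and -0.51 and 95% intervals of -0.81 to 0.29, -0.80 to 0.35 and -1.19 to 0.17.

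The alpha class member Gsta4 stood apart from the fallen genes. Its 3 AOM/DSS + IgG Ab values (172, 149 and 193 FPKM) were all above the Control values (123, 120 and 128), at an adjusted p of 0.17 from limma. Gsta3 was at 15.5 to 19.0 FPKM in Control and 6.40 to 15.1 in AOM/DSS + IgG Ab mice, with an adjusted p of 0.11. Neither passed the test. Gsta1 shares 90.5% of its stretches of 50 bases with other genes, and its level of 0.104 to 4.59 FPKM is uncertain.

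The mu class genes lie side by side on chromosome 3, and of the 7, 2 rose and 2 fell. Gstm7 (chromosome 3, 107926334 to 107931817, minus strand) measured 4.33, 3.83 and 4.77 FPKM in Control, 84.7, 32.7 and 18.9 in AOM/DSS + IgG Ab and 3.74, 3.88 and 3.66 in AOM/DSS + anti-S100a9 Ab mice. The AOM/DSS + IgG Ab mice alone were high, and they differed widely among themselves, while the other 6 mice stayed between 3.66 and 4.77. Its log2 fold change against Control, 3.09 (standard error 0.44, adjusted p = 0.0046 from limma), was the largest rise among the 32 tested members, and without AOM/DSS + IgG Ab replicate 1 it was 2.51. Gstm5 (chromosome 3, 107895821 to 107898686, plus strand) measured 6.47, 7.59 and 10.1 in Control, 36.5, 15.4 and 16.1 in AOM/DSS + IgG Ab and 3.93, 6.39 and 5.83 FPKM under AOM/DSS + anti-S100a9 Ab. It rose by 1.38 on the log2 scale against Control (standard error 0.35, adjusted p = 0.038 from limma), but of the 9 leave-one-out fits only those without Control replicate 3 or AOM/DSS + IgG Ab replicate 2 kept this call.

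Gstm1 (chromosome 3, 108012255 to 108017973) fell instead, from 178, 136 and 193 FPKM in Control to 62.9, 86.9 and 63.9 in AOM/DSS + IgG Ab mice (log2 fold change -1.25, standard error 0.24, adjusted p = 0.016 from limma). Gstm3 (chromosome 3, 107963696 to 107969283) fell from 16.8, 15.9 and 17.0 to 1.38, 5.71 and 3.67 FPKM (log2 fold change -2.39, standard error 0.47, adjusted p = 0.016 from limma). Both were separated completely from Control. Gstm2, Gstm4 and Gstm6 did not pass the test, with log2 fold changes of -1.05, -0.33 and -0.14. Gstm7 and Gstm5 are little affected by shared sequence, since 99.5% and 100% of their stretches of 50 bases occur in no other gene, against 81.1% for Gstm1 and 71.2% for Gstm3.

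These opposite shifts changed the make-up of the mu class. Gstm5 and Gstm7 together held 4.51%, 5.81% and 5.61% of the summed Gstm level in the Control mice, 59.7%, 28.4% and 27.0% in the AOM/DSS + IgG Ab mice and 6.58%, 5.45% and 5.17% under AOM/DSS + anti-S100a9 Ab. In AOM/DSS + IgG Ab replicate 1, Gstm7 alone (41.7%) exceeded Gstm1 (31.0%). The summed Gstm level was 197 to 266 FPKM in Control, 129 to 203 in AOM/DSS + IgG Ab and 117 to 188 in AOM/DSS + anti-S100a9 Ab mice.

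**Figure D3:**
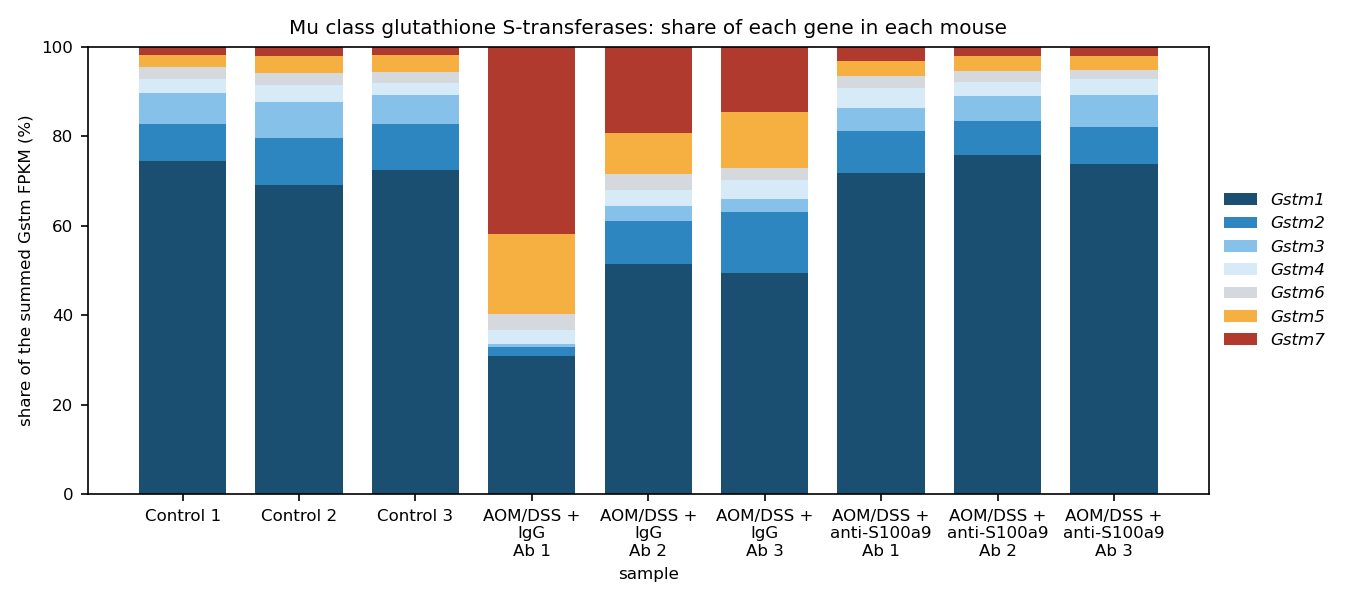
Share (%) of each mu class gene in the summed Gstm FPKM, with 1 stacked bar for each of the 9 mice. Gstm1 held 69.2% to 74.5% in Control and 71.8% to 75.8% in AOM/DSS + anti-S100a9 Ab mice, and 31.0% to 51.4% in AOM/DSS + IgG Ab mice, where Gstm5 and Gstm7 took 27.0% to 59.7%.

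On GRCm38 the 7 mu class genes span 149.1 kb in the order Gstm5, Gstm7, Gstm6, Gstm3, Gstm2, Gstm1 and Gstm4. The 2 genes that rose are the first and second of this order, with start sites 36.0 kb apart, and Gstm5 lies on the opposite strand to the other 6.

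**Figure D4:**
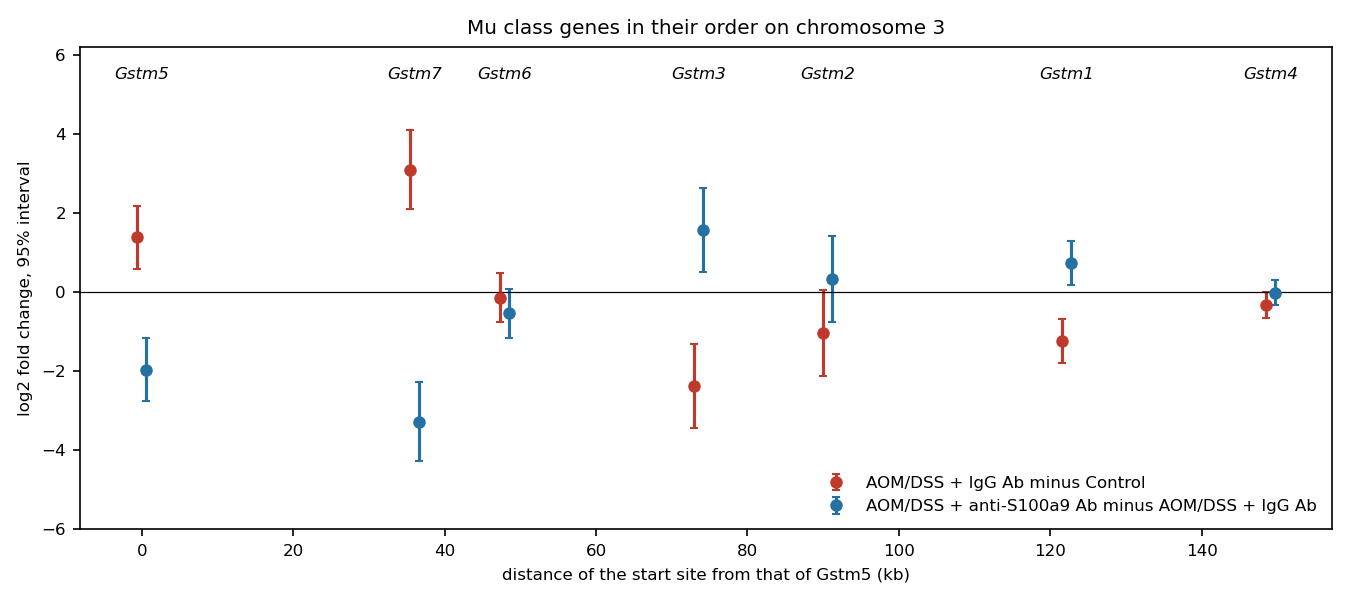
Log2 fold change with its 95% interval (vertical axis) of the 7 mu class genes against the distance of their start sites from that of Gstm5 in kb, for AOM/DSS + IgG Ab minus Control (red) and AOM/DSS + anti-S100a9 Ab minus AOM/DSS + IgG Ab (blue). Both comparisons share the AOM/DSS + IgG Ab mice, and Gstm5 (1.38 and -1.96) and Gstm7 (3.09 and -3.28) have signs opposite to Gstm3 (-2.39 and 1.56) and Gstm1 (-1.25 and 0.74).

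The upstream sequences of these neighbours are shown because their genes moved in opposite directions, and were taken from RefSeq (GRCm38.p6, up to 250 bases before the annotated start, 5′ to 3′ on the gene's strand; 40 of the 43 members had an entry). They were searched on both strands for TGACNNNGC (antioxidant response element core), TGANTCA (AP-1 site), GCGTG (xenobiotic response element core), GTTAAT (half-site of HNF1, an epithelial transcription factor), CAAAGTC (HNF4 core) and CTTTGAT (TCF/LEF site), and capitals mark the matches, which can overlap.
Gstm7 (chr3:107931818-107932067, minus strand): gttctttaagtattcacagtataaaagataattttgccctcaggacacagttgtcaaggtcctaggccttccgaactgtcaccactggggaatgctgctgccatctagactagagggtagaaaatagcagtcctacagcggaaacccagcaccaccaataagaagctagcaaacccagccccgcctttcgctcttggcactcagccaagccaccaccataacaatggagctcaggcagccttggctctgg
Gstm5 (chr3:107895604-107895820, plus strand): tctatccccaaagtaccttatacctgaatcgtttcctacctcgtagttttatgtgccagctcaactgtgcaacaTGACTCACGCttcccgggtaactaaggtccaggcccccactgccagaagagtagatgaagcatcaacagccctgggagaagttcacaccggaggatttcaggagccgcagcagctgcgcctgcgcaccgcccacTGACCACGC
Gstm3 (chr3:107969284-107969424, minus strand): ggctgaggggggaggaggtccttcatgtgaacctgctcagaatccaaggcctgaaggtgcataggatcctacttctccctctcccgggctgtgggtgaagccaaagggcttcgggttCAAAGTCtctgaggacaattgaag
Gstm1 (chr3:108017974-108018223, minus strand): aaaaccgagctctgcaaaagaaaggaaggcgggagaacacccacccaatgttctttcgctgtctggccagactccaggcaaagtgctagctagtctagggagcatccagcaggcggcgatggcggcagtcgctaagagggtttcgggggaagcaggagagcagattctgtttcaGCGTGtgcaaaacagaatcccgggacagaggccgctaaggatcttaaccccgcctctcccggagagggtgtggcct
The Gstm5 window held TGACNNNGC next to its end, TGANTCA farther upstream, and a GCGTG match overlapping each of them. The Gstm7 window shown held no match, and a second RefSeq window of Gstm7 held TGACNNNGC. Gstm3 had only the HNF4 core and Gstm1 only the xenobiotic core.

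Over all 32851 RefSeq windows, 10.2% held TGACNNNGC, 6.75% TGANTCA, 28.2% GCGTG, 6.43% GTTAAT, 3.84% CAAAGTC and 3.21% CTTTGAT. Counted by gene, with a match in any window of the gene, the shares were 11.5%, 7.82%, 30.9%, 7.49%, 4.33% and 3.72% in the same order. By the same count, of the 40 members with windows, 3 held TGACNNNGC, 9 TGANTCA, 9 GCGTG, 7 GTTAAT, 1 CAAAGTC and 0 CTTTGAT. Among the 9 fallen members, GTTAAT was found in 3 (Ugt1a1, Sult1a1 and Sult1d1), GCGTG in 3 (Sult1b1, Sult1d1 and Gstm1), CAAAGTC in 1 (Gstm3) and the other motifs in 0. The windows of Ugt1a1 and Sult1d1, among the members with the largest falls, are shown with their half-sites in capitals.
Ugt1a1 (chr1:88211709-88211958, plus strand): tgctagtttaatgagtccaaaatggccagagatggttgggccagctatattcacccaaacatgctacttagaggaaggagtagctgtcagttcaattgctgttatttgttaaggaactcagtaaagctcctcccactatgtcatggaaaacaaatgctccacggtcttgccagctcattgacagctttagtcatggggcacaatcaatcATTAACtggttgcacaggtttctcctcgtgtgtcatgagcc
Sult1d1 (chr5:87569028-87569256, minus strand): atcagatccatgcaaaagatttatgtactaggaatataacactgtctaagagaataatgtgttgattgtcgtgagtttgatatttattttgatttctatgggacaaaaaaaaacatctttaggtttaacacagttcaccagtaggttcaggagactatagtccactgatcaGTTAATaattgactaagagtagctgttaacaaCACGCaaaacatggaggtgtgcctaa
In Sult1d1 the second run of capitals is the xenobiotic core on the opposite strand. A match describes the letters only, and binding was not measured here.

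Calls of this first comparison depended on which mouse was left out. Without Control replicate 1 or Control replicate 2, 2 members fell in place of 9 (Gstt1 and Sult1b1, or Gstm1 and Gstt1), and of all genes tested 149 and 80 fell in place of 460. Without AOM/DSS + IgG Ab replicate 1 the same 9 members fell and Gstm7 alone rose. Without AOM/DSS + IgG Ab replicate 2 the number went up, to 12 members and 784 of all genes.

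The second comparison set the tissue of AOM/DSS + anti-S100a9 Ab mice against that of AOM/DSS + IgG Ab mice. The paper reports a lower tumor rate and fewer tumors with anti-S100a9 Ab, so antibody and tumor content cannot be told apart here. This comparison shares the AOM/DSS + IgG Ab mice with the first. The values of both are set side by side and are not independent of each other. In the second comparison 6 members were higher (18.8% of 32, background 6.72% of all genes) and 2 were lower (6.25%, background 14.4%). The members' median log2 fold change was 0.55, against -0.06 for all genes. By the unadjusted threshold with more than 2-fold change, 9 members were higher (background 7.64%) and 2 lower (background 8.38%). At an unadjusted p under 0.05 of any size 15 members differed (background 39.1%). In 9 members every AOM/DSS + anti-S100a9 Ab mouse lay above every AOM/DSS + IgG Ab mouse (28.1%, background 18.5%), and in 3 below (background 28.5%). The median was 1.47 for UGT, 1.62 for SULT and 0.03 for GST members.

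Sult1d1 had the largest adjusted-significant rise. Its AOM/DSS + anti-S100a9 Ab values of 38.1, 36.1 and 51.7 FPKM were all above the AOM/DSS + IgG Ab values given above (log2 fold change 2.49, standard error 0.56, adjusted p = 0.021 from limma, and 1.75 without AOM/DSS + IgG Ab replicate 1). Sult1b1 was at 39.2, 58.5 and 48.7 FPKM (log2 fold change 1.32, adjusted p = 0.031) and Ugt1a7c at 12.1, 18.9 and 16.1 FPKM (log2 fold change 1.58, adjusted p = 0.027), both from limma. The groups were separate for each.

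Ugt2b34, with 66.2, 94.5 and 81.2 FPKM, rose by 1.43 on the log2 scale (standard error 0.36, adjusted p = 0.027 from limma). Gstm3 was at 5.86, 10.5 and 13.1 FPKM (log2 fold change 1.56, adjusted p = 0.046 from limma), its lowest value just above the highest AOM/DSS + IgG Ab value of 5.71. Gstt1 was at 18.4, 16.1 and 14.5 FPKM (log2 fold change 0.94, adjusted p = 0.047 from limma). These 2 calls were lost in most leave-one-out fits, since Gstm3 kept it only without AOM/DSS + IgG Ab replicate 2 and Gstt1 only without that mouse or Control replicate 3.

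Other members did not pass the test in this comparison. Sult1a1 measured 28.3, 30.8 and 41.6 FPKM, above all AOM/DSS + IgG Ab mice, with a log2 fold change of 1.92, a 95% interval of 0.32 to 3.52 and an adjusted p of 0.08 from limma. Ugt1a1 was likewise separate (1.52, interval 0.34 to 2.71, adjusted p = 0.067), and Gstm1, at 83.7, 143 and 136 FPKM, overlapped by 1 mouse (0.74, interval 0.18 to 1.29, adjusted p = 0.06). Gstt3 gave 0.58 with an interval of -0.18 to 1.33. Sult1e1 reached 1.60, 1.10 and 0.916 FPKM (adjusted p = 0.081 from limma). Its lowest value was just above the highest AOM/DSS + IgG Ab value of 0.913.

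The 2 members that fell were Gstm7 and Gstm5. Gstm7 fell by 3.28 on the log2 scale (standard error 0.44, adjusted p = 0.0049 from limma), with a log2 fold change of -2.69 without AOM/DSS + IgG Ab replicate 1. Gstm5 fell by 1.96 (standard error 0.35, adjusted p = 0.011 from limma). These 2 calls held in all 9 leave-one-out fits and in the 9 other alternatives, the highest adjusted p being 0.028 for Gstm7 and 0.044 for Gstm5. Gsta4 was at 92.8 to 158 FPKM against 149 to 193, overlapping, with an adjusted p of 0.086.

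The count of higher members was less firm than that of lower ones. It was 2 without AOM/DSS + IgG Ab replicate 1 or replicate 3 (Sult1b1 and Sult1d1 in each), and 11 without replicate 2. Each of the 6 calls was lost when any AOM/DSS + anti-S100a9 Ab mouse was left out. The counts were then 1 (Gstm1), 0 and 1 (Ugt1a2) without replicates 1, 2 and 3, members outside the 6, and 164, 88 and 262 of all genes tested were higher in place of 1026. Some colonocyte markers moved beside these members: Car4, Slc26a3 and Car1 rose by 4.58, 4.12 and 2.66 on the log2 scale (adjusted p = 0.022, 0.012 and 0.024 from limma). Of 10 such markers these 3 were called higher and 0 were called lower, with a median log2 fold change of 1.04. Guca2b lay lower without overlap, at 4.38 to 7.73 against 9.04 to 15.8 FPKM, and Slc51a, at low values, had a lower mean. Guca2a overlapped, at 480 to 841 against 94.1 to 725 FPKM.

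**Figure D5:**
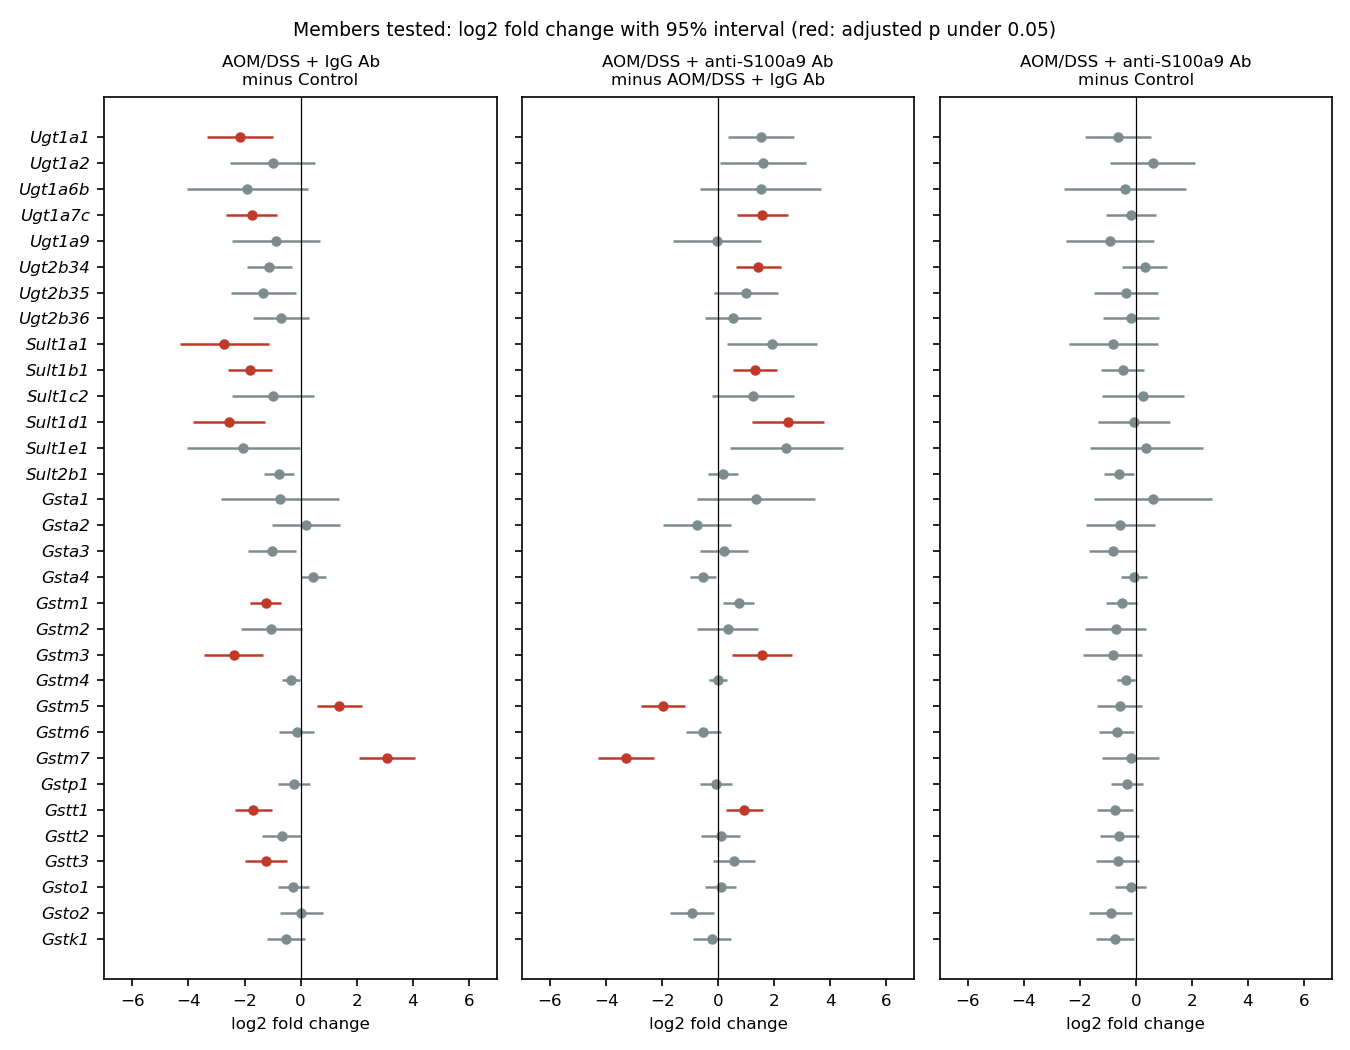
Log2 fold change (horizontal axes) with its 95% interval for the 32 tested members in the 3 comparisons, grouped by family, with red for an adjusted p under 0.05. There are 11 red members in the first panel, 8 in the second and 0 in the third, where 27 of 32 points lie below 0 (22 of 32 after scaling each sample to the same sum).

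The third comparison, AOM/DSS + anti-S100a9 Ab against Control, asks how far the treated tissue still differed from normal mucosa. No member passed the adjusted threshold of limma, where the background was 0.00655% in each direction, 1 gene higher and 1 lower of 15278. At an unadjusted p under 0.05, 6 members differed (18.8%, background 16.0%), all of them lower (Gstk1, Gstm4, Gstm6, Gsto2, Gstt1 and Sult2b1), and 0 did so with more than 2-fold change (background 0.864% lower and 2.28% higher). No member lay above Control in every mouse (background 17.3%).

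Yet 13 of the 32 members (40.6%, background 13.7%) were lower in all 3 AOM/DSS + anti-S100a9 Ab mice than in every Control mouse. Of these, 11 were GSTs: Gsta3, Gstk1, Gstm2, Gstm3, Gstm4, Gstm5, Gstm6, Gsto2, Gstt1, Gstt2 and Gstt3. The others were Sult1b1 and Ugt1a1. Non-overlap was counted on unscaled FPKM, and whether it held after scaling each sample to the same sum was not tested. In this comparison that scaling moved the median log2 fold change of all genes by 0.196. Narrow separations, such as that of Gstm4, may therefore depend on the scale. Gstt1 stood at 14.5 to 18.4 FPKM against 23.2 to 35.6 in Control (log2 fold change -0.74, 95% interval -1.39 to -0.10, adjusted p = 0.30 from limma). Gstk1, a mitochondrial and peroxisomal transferase, was at 9.25 to 14.6 against 15.3 to 31.1 FPKM (-0.73, interval -1.41 to -0.06). Gstm4 was at 5.22 to 6.40 against 7.22 to 7.65 FPKM (-0.35, interval -0.67 to -0.02). The family medians were -0.25 for UGT, -0.27 for SULT and -0.59 for GST members, against 0.04 for all genes. Differences between families were not tested.

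Several members called in the earlier comparisons had intervals that included 0 here. Gstm7 had a log2 fold change of -0.19 (interval -1.19 to 0.82), Sult1d1 of -0.06 (-1.33 to 1.22), Ugt1a7c of -0.17 (-1.07 to 0.73) and Ugt2b34 of 0.32 (-0.49 to 1.13). These intervals do not show that the levels are the same. The signs of Gstm7, Sult1d1 and Ugt1a7c in this comparison flipped when each sample was scaled to the same sum.

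Genes around the conjugation step were read from lists given in full to limma along with all others. Of 18 other conjugating enzymes tested, Tpmt, which methylates thiopurines, rose in AOM/DSS + IgG Ab against Control (log2 fold change 1.00, adjusted p = 0.029 from limma), and Inmt, an amine N-methyltransferase, fell by 3.66 (adjusted p = 0.00088). Inmt measured 5.41, 12.4 and 7.58 FPKM in Control, 0.512, 0.847 and 0.349 in AOM/DSS + IgG Ab and 7.14, 6.94 and 6.87 in AOM/DSS + anti-S100a9 Ab mice. Its AOM/DSS + IgG Ab mice were all under 1 FPKM. In the second comparison Inmt was higher by 3.47 and Tpmt was lower (-0.85), each past the adjusted threshold of limma.

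Of 17 genes of cosubstrate supply and conjugate removal, 2 fell and 2 rose. Ugdh, which makes UDP-glucuronic acid, fell by 1.24 from 55.8 to 93.0 FPKM in Control to 23.1 to 42.2, and Papss1, which makes PAPS, fell by 0.62 (adjusted p = 0.023 and 0.036 from limma). Gusb, the lysosomal enzyme that removes glucuronic acid, rose by 1.15, from 9.37 to 11.7 FPKM to 21.6 to 26.8 (adjusted p = 0.0023 from limma), and Slc35b2, which carries PAPS into the Golgi, by 0.62 (adjusted p = 0.043). In AOM/DSS + anti-S100a9 Ab compared with AOM/DSS + IgG Ab, 3 genes of this list were higher and 2 lower: Ugdh, Papss1 and Ugp2, which makes UDP-glucose, were higher (1.04, 0.66 and 0.69) and Gusb and Slc35b2 lower (-1.03 and -0.62), each with an adjusted p of 0.031 or less from limma. Sts was not analysed here.

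Among 8 efflux transporters, 2 rose and 2 fell. Abcc2, an apical exporter of glucuronide and glutathione conjugates, was at 0.00493 to 0.0844 FPKM in Control, at 13.1, 5.87 and 3.28 in AOM/DSS + IgG Ab and at 0.985, 0.159 and 0.0701 FPKM under AOM/DSS + anti-S100a9 Ab. Its log2 fold changes were 5.52 and -4.15 in the first and second comparisons (adjusted p = 0.0029 and 0.01 from limma). Abcc4 rose by 1.44 against Control (adjusted p = 0.044). Abcg2, which exports sulfate conjugates, and Abcb1a, P-glycoprotein, fell with log2 fold changes of -1.74 and -1.68 (adjusted p = 0.0087 and 0.047 from limma). They were higher by 1.55 and 2.25 in the second comparison (adjusted p = 0.013 and 0.016).

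Of 15 transcription factors of xenobiotic response and epithelium, Vdr, the vitamin D receptor, and Ahrr, a repressor of the aryl hydrocarbon receptor, fell by 1.90 and 1.96 in AOM/DSS + IgG Ab against Control (adjusted p = 0.035 and 0.013 from limma) and 0 rose. In the second comparison 5 were higher, Ahrr, Vdr, Ppara, Hnf4a and Rxra (log2 fold changes 2.30, 1.87, 1.69, 0.69 and 0.49), and 0 lower. Of 12 genes listed as targets of Nrf2, the factor that also drives several GSTs, 4 rose and 1 fell. Gpx2, a glutathione peroxidase of the gut epithelium, went from 169 to 326 FPKM to 416 to 761 (log2 fold change 1.33), and Hmox1, heme oxygenase 1, from 3.37 to 7.60 to 14.2 to 33.9 FPKM (1.89), with adjusted p of 0.029 and 0.015 from limma. Txnrd1, a thioredoxin reductase, and G6pdx, which supplies NADPH, rose by 0.65 and 0.52, and Osgin1 fell by 0.69 (adjusted p = 0.042, 0.049 and 0.035 from limma). The list's median log2 fold change was 0.40, against 0.09 for all genes. In the second comparison 4 of the 12, Gpx2, Hmox1, Prdx1 and Txnrd1, were lower and 0 higher. No gene of these 5 lists passed the adjusted threshold of limma in the third comparison.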

How the data were processed

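RNA of 9 colorectal samples was sequenced, 3 mice per group. The authors deposited FPKM, 1 file per mouse with 21544 rows. Sources do not state this unit, which was read from the values. The submitters' processing notes name TopHat, Cufflinks, HTSeq, DESeq and GRCm38 without versions. Repeated symbols were summed, and log2(FPKM + 0.1) was tested with limma 3.58.1 in R 4.3.3 (intensity trend, 8.87 degrees of freedom, 15278 genes after the low-value filter). The test was checked on simulated data. Members and gene lists were chosen with earlier results of these data known. Named members are the most abundant of each subfamily, those with an adjusted p under 0.05, and the 5 largest rises and falls per comparison past the study's thresholds, the latter at a group mean of 1 FPKM or more. Named list genes passed in the first comparison. Further members and list genes were named after their values were seen. Ranges and non-overlap counts are descriptions and use unscaled FPKM. Positions and shared stretches of 50 bases are from GENCODE M21, promoters from RefSeq. Alternatives covered pseudocount, filter, scaling, trend, groups fitted, replicate block, threshold and each sample left out. One gene of the list of other conjugating enzymes is not reported here.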

Additional observations from a re-analysis of the deposited data

How the results depend on the processing

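With 3 mice per group and no counts, precision came from the spread between mice, which limma moderated over all genes tested. For AOM/DSS + IgG Ab against Control, the numbers of members higher and lower were 2 and 9. They were 1 and 3 when only the 2 groups compared were fitted, and ranged from 1 to 2 and from 2 to 12 over the fits that left out a sample. For AOM/DSS + anti-S100a9 Ab compared with AOM/DSS + IgG Ab, the number higher was 6, with 3 when only those groups were fitted and 0 to 11 with a sample left out, and the number lower was 2 under every alternative. Against Control, AOM/DSS + anti-S100a9 Ab had 0 members called in each direction under every alternative.

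After each gene's group mean was subtracted, the deviations of same-numbered mice correlated over 0.1 in 5 of 9 pairs (-0.187 to 0.249). For differently numbered mice of different groups these correlations ranged from -0.267 to 0.19. The labels do not say that the numbers pair the mice, so pairing was left to an alternative fit with a replicate block. With the replicate block, 1 member was higher and 11 were lower in the first comparison (the adjusted p of Gstm5 became 0.068, of Gstt2 0.049 and of Ugt2b34 0.044), and 7 were higher and 2 lower in the second (Gstt1 0.052, Sult1a1 0.041, Ugt1a1 0.043).

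Scaling each sample to a common sum moved the median log2 fold change of all genes by 0.083, 0.112 and 0.196 in the 3 comparisons, and median-of-ratios scaling by -0.103, 0.074 and -0.026. Relative to the median of all genes, 28, 8 and 27 of 32 members were lower, and 28, 9 and 27 under either scaling.

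Signs changed only for values that were not called. Scaling to a common sum gave log2 fold changes of 0.12 for Gsta4, 0.0084 for Gstm7, 0.019 for Gsto1, 0.14 for Sult1d1 and 0.033 for Ugt1a7c in AOM/DSS + anti-S100a9 Ab against Control, and 0.021 for Gstp1 in the second comparison. Leave-one-out values against Control ranged from -0.29 to 0.091 for Gsta4, -0.31 to 0.14 for Sult1d1, -0.33 to 0.74 for Sult1e1, -0.43 to 0.018 for Ugt1a7c and -0.0084 to 0.52 for Ugt2b34. In the second comparison they ranged from -0.16 to 0.26 for Gsto1, -0.33 to 0.072 for Gstp1, -0.25 to 0.31 for Gstt2 and -0.080 to 0.36 for Sult2b1. Over the 57 values of named members, 904 of the alternatives kept sign and side of the threshold, 87 lost a call, 15 gained one and 20 changed sign; the cause was not tested.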
